A study of Bos grunniens with 36 samples.

Results

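The genes described here encode the subunits of the 5 complexes of oxidative phosphorylation, with a few relatives and assembly factors that share their names. A gene entered when its symbol in the array annotation began with NDUFA, NDUFB, NDUFC, NDUFS, NDUFV, UQCR, COX4 to COX8 or ATP5, or was SDHA, SDHB, SDHC or SDHD. By that rule 88 of the 20110 genes or unnamed transcripts of the deposited expression table were members. Complex 1 held 44 of them, complex 2 held 4, complex 3 held 8, complex 4 held 15 and complex 5 held 17. Of the 89 matching symbols on the array, COX7B2, a tissue form of COX7B, was not among the table's genes and was not analysed here. Each gene was represented by its probe with the highest mean over all arrays.

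Complexes 1 to 4 pass electrons from NADH and succinate to oxygen and pump protons across the inner mitochondrial membrane, except complex 2, which pumps none. Complex 5, ATP synthase, uses the proton gradient to make ATP. Most subunits are encoded in the nucleus and imported, while a small core is encoded in mitochondrial DNA, and several complex 4 subunits exist as a general form and a form known from muscle or lung. Milk secretion is costly in energy, and the secretory cell of the lactating gland is rich in mitochondria.

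The samples were mammary gland biopsies of 4 female yaks (Bos grunniens), one from each animal at each of 9 times: day -30 and day -15 before calving, and day +1, +15, +30, +60, +120, +180 and +240 after it. The animals carried no labelled treatment or genotype, biopsies were taken from the left and right rear of the udder in turn, with no record for each array, and yak RNA was put on 36 single-colour arrays of a cattle design. Groups are therefore called by their day alone, with 4 arrays each, and day -30 was the reference. Levels are log2 values with 0 at the 75th percentile of the array, and a change is a difference of log2 means over the 4 yaks, with its standard error (SE) from a model over all 36 arrays. A gene was called when the adjusted p of that comparison (limma, animals as a random block, Benjamini-Hochberg over all 20110 genes) was under 0.05. In whole tissue, fewer cells of a type and less RNA per cell cannot be told apart.

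Some arrays went against their labels or stood apart. The day of each array was taken from the sample title of its column in the expression table. Each of the 36 columns matched exactly 1 scanner file, but 0 of 36 matched the file deposited under the same sample, 9 matched a file of the same day and 27 a file of another day. Counts under the scanner files' own days are given beside the main results. In the table's record all 4 arrays of a day lay on 1 slide and each animal kept 1 slide position, so that day and slide cannot be told apart. Arrays differed in brightness (their 75th percentile of processed signal), with the dimmest at 1029 and the brightest at 6450 intensity units, and 0 spots were saturated. Marker genes of the luminal secretory cell were well above background at every day, all 10 of them on at least 3 of 4 arrays. On the arrays of yak 4 at day +120 and day +180, the mean of 6 milk protein genes was 0.04 and -0.08, against 3.54 to 5.08 at day -30. Among the other arrays after calving, yak 3 at day +30 (3.94) and yak 1 at day +240 (4.23) lay within that range. Of the 88 members, 87 were well above background on all 36 arrays.

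After calving, 43 of the 88 genes were called higher at day +15 and 40 at day +60 than at day -30, while in complex 4 COX4I2 was called lower at both days and COX7A1 at day +15 alone. At day +15, 10.2% of all genes were called higher and 7.71% lower, against 43 and 2 of the 88. At day +60, 12.6% of all genes were called higher and 16.7% lower, against 40 and 1 of the 88. Counted without a test, 82 and 78 of the 88 lay above day -30. The median change of the 88 genes was 0.68 at day +15 and 0.58 at day +60, against -0.01 and -0.12 for all genes, but it was -0.07 and -0.12 once array brightness entered the model. Neither day overlapped with day -30 in brightness, so that day and brightness cannot be told apart in these changes. Of the genes that rose, 35 were called higher at both days, 8 at day +15 alone and 5 at day +60 alone. Over all 9 days the F test called 56 of 88 genes, where it called 42.3% of all genes.

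The other days gave few calls. At day -15, limma called 0 of 88 genes, and 0 had an unadjusted p under 0.05, where 0% of all genes were called higher and 0.00497% lower, and 26 of 88 lay above day -30. At day +1 COX4I2 was the only gene of the 88 called, and it was lower, where 1.94% of all genes were higher and 4.3% lower. It was again the only call at day +30 (2.12% of all genes higher, 4.26% lower) and at day +120 (1.06% higher, 2.7% lower). At day +180, 2 genes were higher (6.67% of all genes) and 1 lower (10.8%). At day +240, 10 were higher (6.86%) and 1 lower (7.08%). The median change of the 88 genes was -0.06 at day -15, 0.07 at day +1, 0.17 at day +30, 0.06 at day +120, 0.29 at day +180 and 0.43 at day +240. The late direction turned with the scaling. The medians of day +180 and day +240 were -0.09 and -0.08 after quantile normalization, and -0.17 and -0.22 with array brightness in the model. Quantile normalization gave 0 genes higher and 8 lower at day +180, and 2 higher and 5 lower at day +240, and the model with brightness gave 0 higher and 15 lower, and 0 higher and 7 lower. The highest of the 9 day means fell on day +15 for 43 genes and on day +60 for 25, and the lowest fell before day +15 for 62 genes, at day -30 in 17, at day -15 in 29 and at day +1 in 16.

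**Figure D1:**
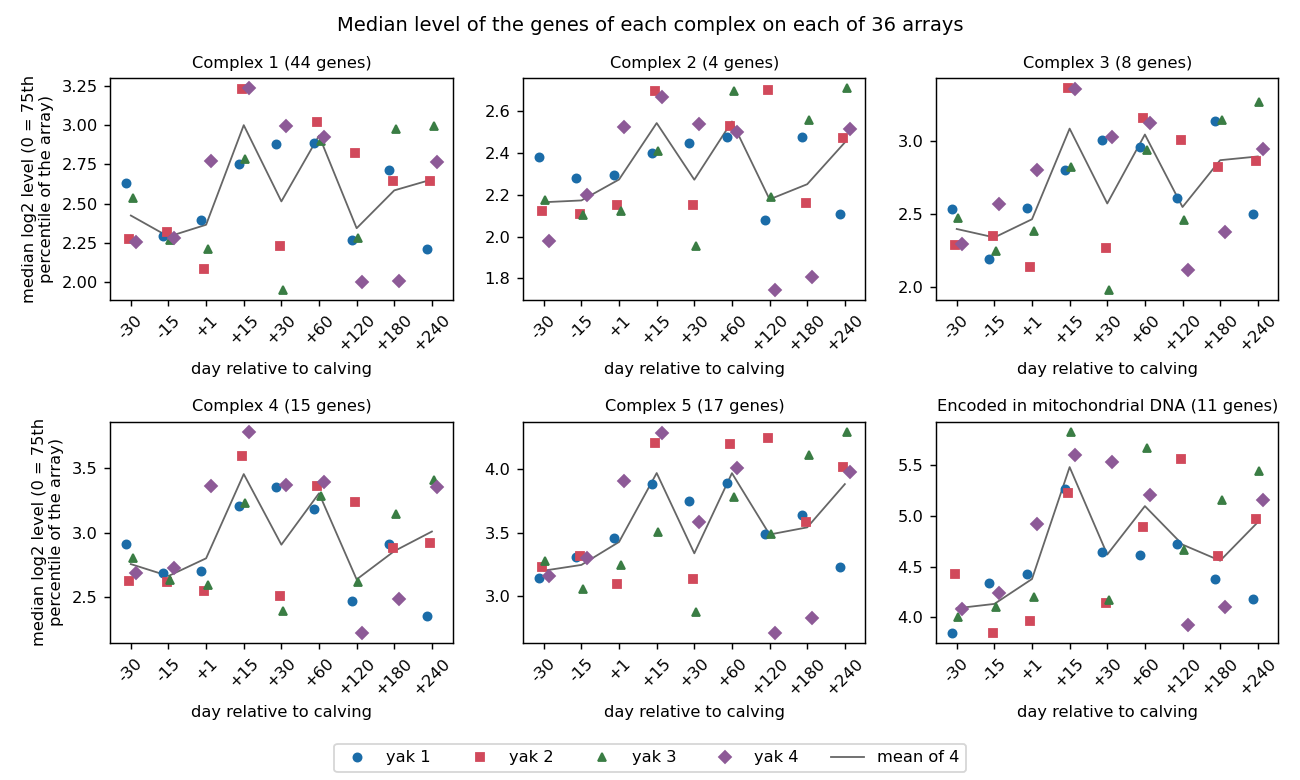
Median log2 level (vertical axis, 0 = 75th percentile of the array) of the genes of each complex on each array, by day relative to calving (horizontal axis), with a marker per yak and a line through the mean of 4. In complex 1 all arrays of day +15 (2.75 to 3.23) and day +60 (2.89 to 3.02) lay above those of day -30 (2.26 to 2.63), although the median change of the 88 genes was -0.07 and -0.12 with array brightness in the model. Day and brightness cannot be told apart in these comparisons.

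The level of the genes moved with the brightness of the arrays as well as with the day. The 4 arrays of day -30 had a brightness of 4854 to 5752 and medians of the 88 genes of 2.32 to 2.69. The 4 arrays of day +15 had a brightness of 1029 to 2114 and medians of 2.93 to 3.39, and those of day +60 a brightness of 1278 to 2512 and medians of 3.02 to 3.19. Within a day, the dimmest of the 4 arrays had a higher median than the brightest at 6 of 9 days, and a lower one at day -30, day -15 and day +60. At day +30 the arrays of yak 1 and yak 4, at a brightness of 2172 and 1402, had medians of 3.04 and 3.07, while those of yak 2 and yak 3, at 4447 and 5698, had 2.37 and 2.11. These arrays also differed in the mean of the 6 milk protein genes. It was 7.11 in yak 1 and 7.72 in yak 4, and 5.94 in yak 2 and 3.94 in yak 3. At day +120 the array of yak 4, the brightest of all at 6450, had the lowest median of the 36, 2.04. The position of the 88 genes within their arrays moved little, with a median percentile among all genes of 93.3 to 94.4 at day -30, 94.2 to 95.4 at day +15 and 93.7 to 94.3 at day +60. The 95th percentile of all genes was itself 2.56 to 2.81 at day -30, 3.13 to 3.48 at day +15 and 3.20 to 3.36 at day +60. With brightness in the model, 1 gene was called higher and 1 lower at day +15, and 0 higher and 4 lower at day +60. Quantile normalization, which gives all arrays 1 distribution, left 12 higher and 3 lower at day +15, and 5 higher and 3 lower at day +60, with medians of 0.18 and 0.06. The brightness of day -30 did not overlap with that of day +15 or day +60. Day and brightness therefore cannot be told apart in these comparisons, and the correction for brightness rests on differences between arrays within days. The parts of brightness and of milk protein mRNA in the result were not tested further.

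**Figure D2:**
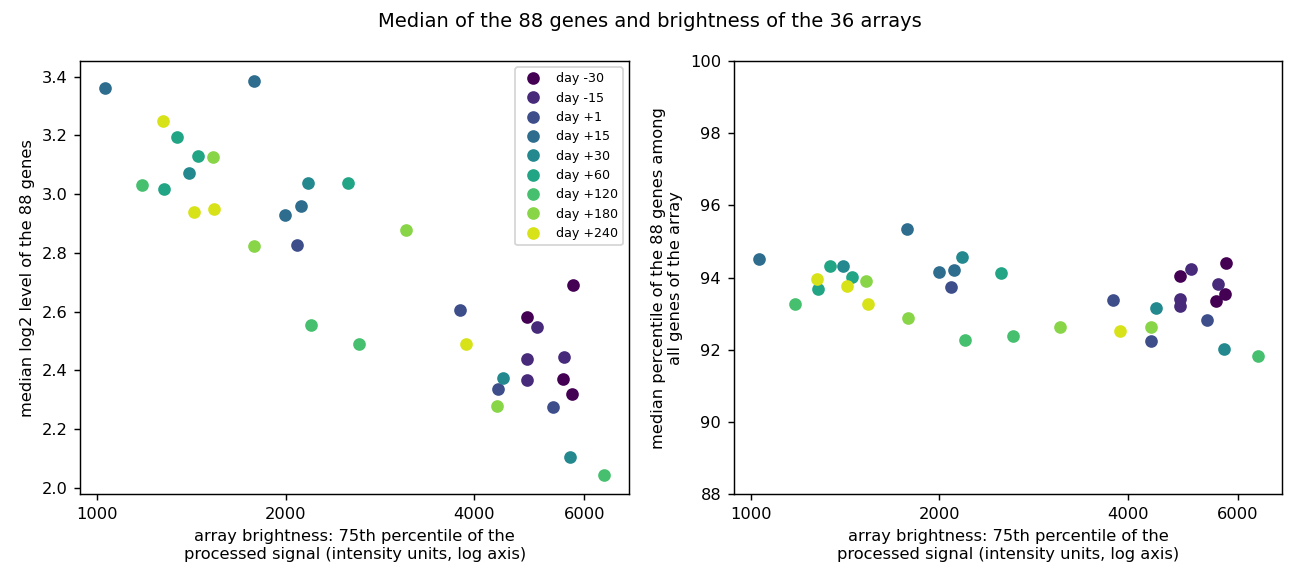
Each of the 36 arrays by its brightness (horizontal log axis, 75th percentile of the signal in intensity units) and by the median log2 level of the 88 genes (left) or their median percentile among all genes of the array (right), coloured by day. The median level was 3.36 on the dimmest array (1029) and 2.04 on the brightest (6450), while the percentile lay between 91.8 and 95.4 on all arrays.

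The record of days and the single animals also bore on the counts. The share of all genes called was not counted under any alternative, here or elsewhere. A fall or rise of these counts therefore cannot be read as particular to the 88 genes. Under the days of the scanner files, 0 genes were called higher at day +15 and 2 at day +60, while 39 were called higher at day +30. The median change of the 88 genes under those days was 0.65 at day +1, 0.34 at day +15, 0.70 at day +30 and 0.45 at day +60. For all genes it was -0.02, 0.01, -0.09 and -0.01. At day +15 and day +60, 79 and 76 of the 88 lay above day -30. Leaving out yak 2 left 5 genes higher at day +15 and 8 at day +60, and leaving out yak 3 left 8 and 13. Without yak 1 the counts were 17 and 22, and without yak 4 they were 14 and 27. The size of the change moved less: the median of the 88 genes was 0.59 and 0.54 without yak 2, 0.77 and 0.64 without yak 3, 0.74 and 0.68 without yak 1, and 0.56 and 0.57 without yak 4. Without the pair of arrays low in milk protein mRNA, a setting chosen after the data were seen, 51 genes were higher at day +15 and 49 at day +60, 31 at day +180 and 24 at day +240.

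**Figure D3:**
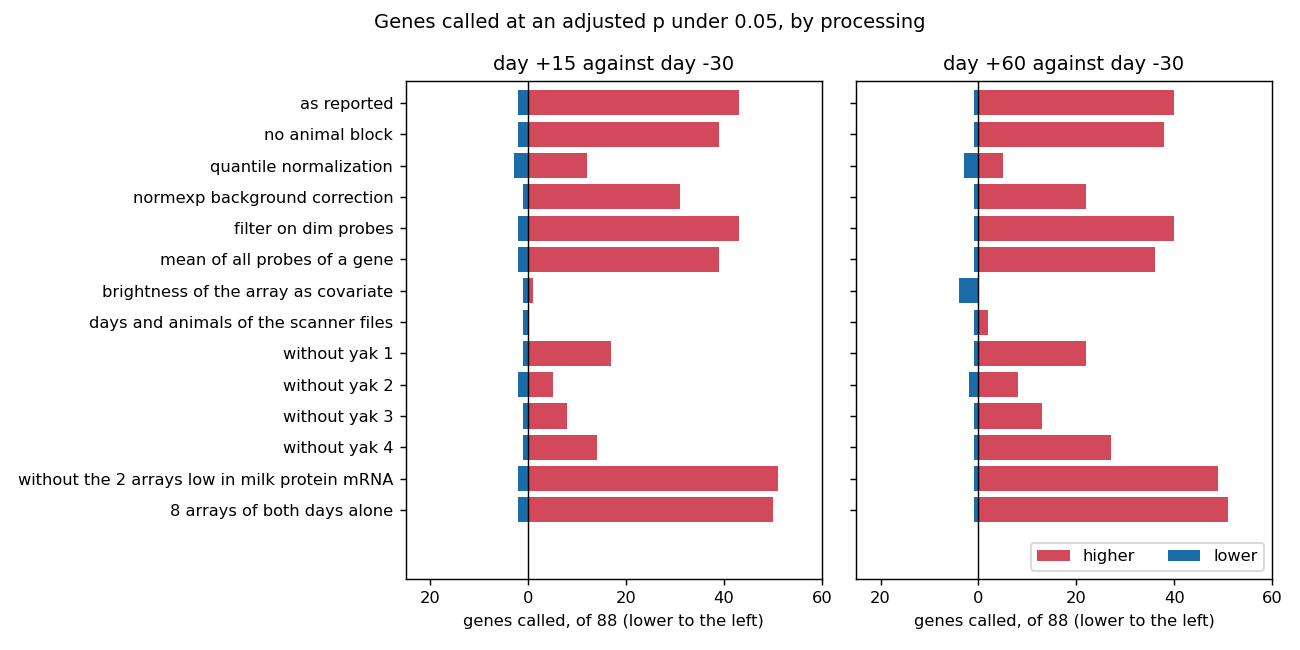
Number of the 88 genes called higher (right of 0) and lower (left of 0) at an adjusted p under 0.05 at day +15 and day +60 against day -30, for the reported analysis and each alternative. The reported 43 and 40 higher genes fell to 1 and 0 with array brightness as a covariate, and to 0 and 2 under the days of the scanner files. Neither day overlapped with day -30 in brightness, so the covariate cannot separate the day from brightness.

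Complex 1, which takes electrons from NADH, held 18 of its 44 genes called higher at day +15 and 16 at day +60, with a median change of 0.66 and 0.57. The largest rises were in NDUFA5 and NDUFA4. NDUFA5, an accessory subunit, stood at 2.14, 2.53, 2.52 and 2.58 at day -30 in yaks 1 to 4 and at 3.24, 3.89, 3.63 and 3.94 at day +15. All 4 yaks were higher and the groups did not overlap (change 1.23, SE 0.352, adjusted p = 0.019, limma). NDUFA4, long counted in complex 1 and now assigned to complex 4, was 3.18, 3.05, 3.09 and 3.01 at day -30 and 4.04, 4.29, 4.05 and 4.75 at day +15. Its change was 1.20 (SE 0.302, adjusted p = 0.0096), and it was called higher again at day +60 (1.12) and at day +240 (0.89).

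The core subunits of complex 1, which carry the flavin and the iron-sulfur clusters, gave 3 of 7 calls at day +15, among them NDUFV2 (0.77) and NDUFS1 (0.71), and 1 of 7 at day +60. Of the 30 accessory subunits, 13 were called higher at day +15 and 14 at day +60, and the difference between these shares was not tested. NDUFS1, the largest iron-sulfur subunit, rose in all 4 yaks at day +15, to 0.97, 1.67, 1.02 and 0.95 from 0.17, 0.59, 0.38 and 0.61 (adjusted p = 0.013, limma), and at day +60 it was not called (0.37, adjusted p = 0.14). NDUFA12, an accessory subunit with the smallest F test p of the complex, stood between 1.79 and 1.92 at day -30, between 1.40 and 1.62 at day +1 and between 1.94 and 2.38 at day +15. From day +1 to day +15 it rose by 0.66 (SE 0.138, adjusted p = 0.034), in 4 of 4 yaks and with no overlap, the only call among the 88 genes between those days, where 0.318% of all genes were called. Against day -30 its changes of -0.32 and 0.35 were not called (adjusted p = 0.18 and 0.073), and under the days of the scanner files its step from day +1 to day +15 was -0.09.

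The 5 assembly factors that share the NDUF prefix, which build complex 1 but are no part of it, gave 1 call against day -30, NDUFAF2, a paralog of NDUFA12, at day +15 (0.72). The other changes at that day were 0.40 in NDUFAF4, 0.19 in NDUFAF1, -0.26 in NDUFAF3 and -0.29 in NDUFAF6, none of them called. Late in lactation NDUFB10, a membrane-arm subunit, was one of the genes called at day +180: it was 1.99, 1.89, 1.92 and 1.55 at day -30 and 2.79, 2.68, 2.83 and 1.98 at day +180 (change 0.74, SE 0.241, adjusted p = 0.033), higher in all 4 yaks although the ranges overlapped. Of 13 alternatives 5 kept this call, with changes from 0.22 to 0.94.

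**Figure D4:**
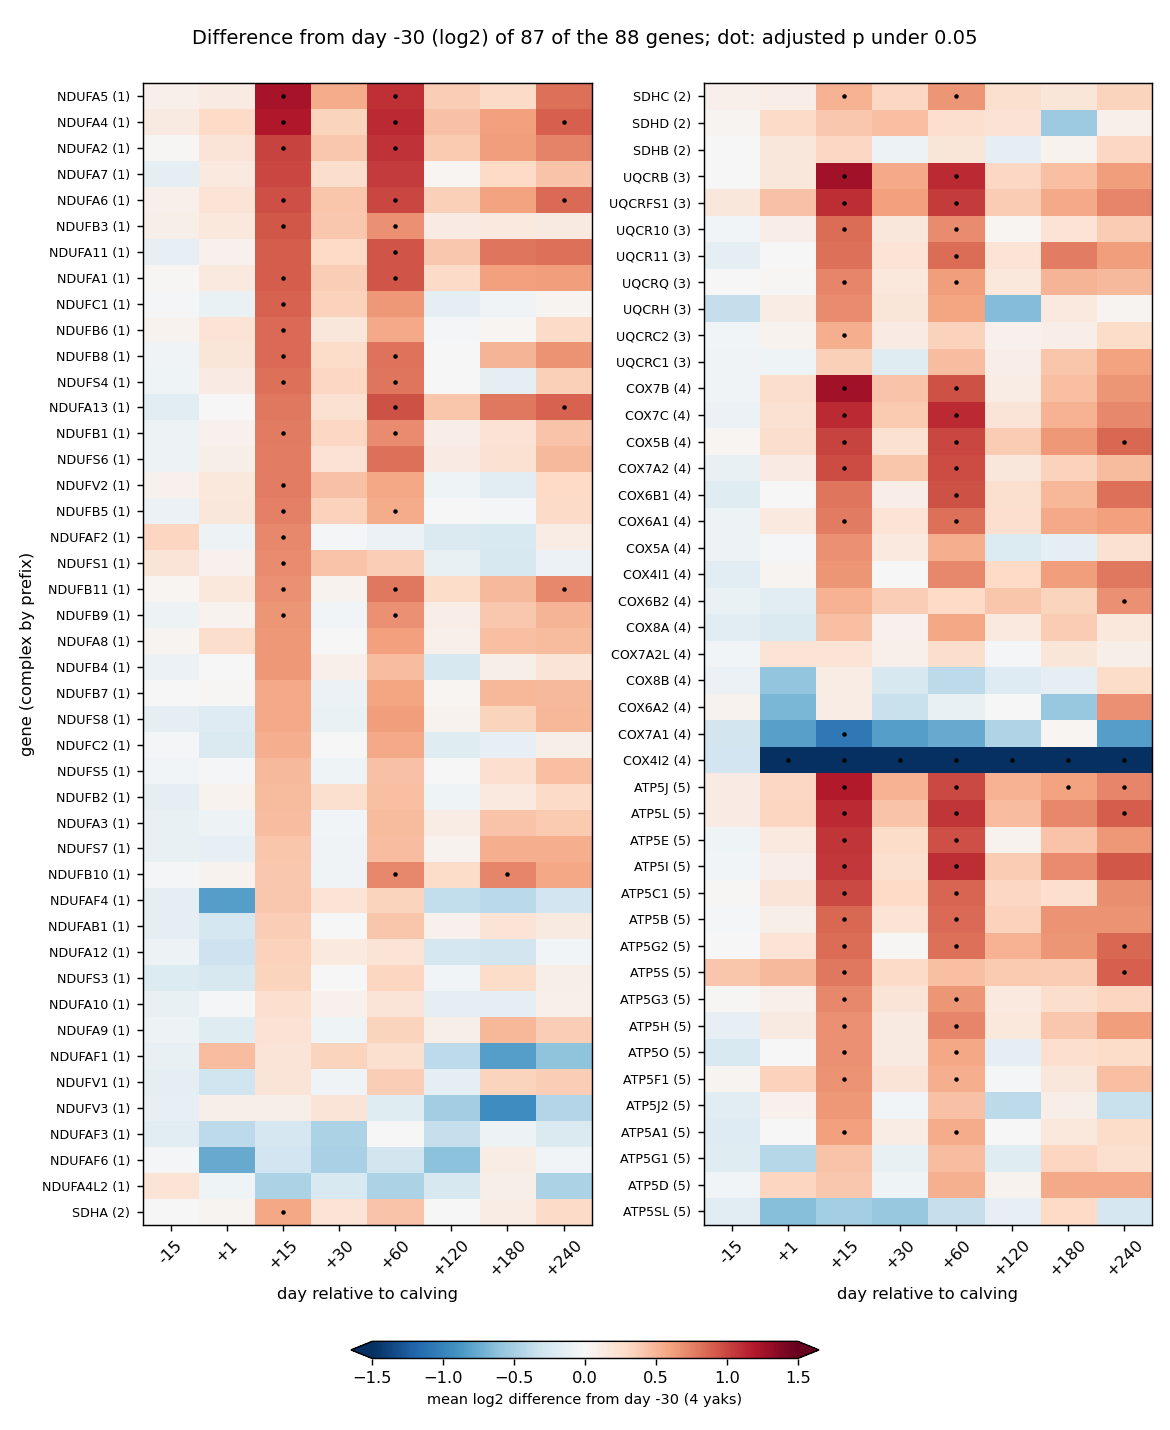
Difference from day -30 (colour, log2, mean of 4 yaks) of 87 of the 88 genes at the later 8 days (columns), ordered within each complex by the change at day +15, with a dot for an adjusted p under 0.05. Day +15 and day +60 hold 44 and 40 of the dots, but with array brightness in the model 2 and 4 of the 88 genes were called there, and COX4I2 lies below the colour scale from day +1 on. At these days brightness cannot be told apart from the day.

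Complex 2, succinate dehydrogenase, joins the tricarboxylic acid cycle to the chain and has no subunit in mitochondrial DNA. Its median change was the smallest of the 5 complexes, 0.46 at day +15 and 0.34 at day +60. The median of its 4 genes lay 0.27 to 0.43 below that of the other 84 on the arrays of day -30, and 0.53 to 0.74 below it on those of day +15, so the gap at day +15 lay beyond the range at day -30 on each array. At day +60 it was 0.37 to 0.69, which overlaps that range. This is a description with no test, in which the size of the gap cannot be read, since probes differ in brightness. Nor can its change be told apart from array brightness, which did not overlap between day -30 and day +15. At day +30 complex 2 and the whole set had medians of 2.45 and 3.04 in yak 1 and 2.54 and 3.07 in yak 4. On the brighter arrays of yak 2 and yak 3 they lay closer, at 2.15 and 2.37, and 1.95 and 2.11. At day +60 the dimmest array had the closer medians, 2.70 and 3.02, and the brightest had 2.48 and 3.04. The part of brightness in the gap was not tested. SDHA, the flavoprotein, was 2.97, 2.49, 3.02 and 2.25 at day -30 and 3.32, 3.29, 3.36 and 3.10 at day +15, with all arrays of day +15 above those of day -30 (change 0.59, SE 0.206, adjusted p = 0.047). Of 13 alternatives 2 kept this call, with changes of SDHA from 0.05 to 0.66. SDHC, a membrane anchor, was called at day +15 (0.52, adjusted p = 0.049) and at day +60 (0.66, SE 0.184, adjusted p = 0.0088), but with the mean of its 3 probes the change at day +15 was -0.03. SDHB, the iron-sulfur subunit, changed by 0.31 at day +15 and 0.18 at day +60 and was not called. SDHD, the other anchor, was 1.35, 1.99, 1.30 and 1.68 at day -30, 2.09, 2.17, 2.12 and 1.58 at day +15, and 1.05, 0.84, 0.91 and 1.34 at day +180. Its values at day +180 were below those of the same yak at day -30 in 4 of 4, and neither change was called (0.41, adjusted p = 0.18, and -0.55, adjusted p = 0.077), although the F test over all days was (adjusted p = 0.014).

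Complex 3, cytochrome bc1, had the largest median change at day +15, 0.78, and 5 of its 8 genes were called higher there and at day +60. UQCRB, its ubiquinone-binding subunit, showed the largest rise of all 88 genes. It stood at 1.62, 1.72, 1.62 and 1.74 at day -30, at 2.64, 3.23, 2.78 and 3.08 at day +15, and at 2.68, 2.78, 2.95 and 2.78 at day +60. Both later days lay wholly above day -30 (changes 1.26 and 1.12, SE 0.295, adjusted p = 0.0066 and 0.0063). UQCRFS1, the Rieske iron-sulfur protein, rose by 1.10 and 1.05, while the core proteins UQCRC1 and UQCRC2 changed by 0.35 and 0.55 at day +15, the latter called. UQCRH, the hinge protein of the complex, fell by 1.24 between day +60 (2.62 to 3.10) and day +120 (0.69 to 2.21), in 4 of 4 yaks (SE 0.279, adjusted p = 0.027, limma), the only call among the 88 genes between those days, where 0.895% of all genes were called. Under the days of the scanner files this step was 0.45. The calls of COX4I2, NDUFA12 and UQCRH between neighbouring days were each lost when any 1 of the 4 yaks was left out, while the changes kept their direction. They were -2.24 to -1.73 in COX4I2 (adjusted p from 0.074 to 0.20, limma), 0.61 to 0.75 in NDUFA12 (0.089 to 0.43) and -1.51 to -0.84 in UQCRH (0.051 to 0.28).

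Complex 4, cytochrome c oxidase, held calls in both directions. Of its 9 general forms, 5 were called higher at day +15 and 6 at day +60, with median changes of 0.81 and 0.96, and COX8A, COX5A and COX4I1 were called at neither day. COX7B, a small subunit, was 3.18, 3.32, 3.06 and 3.04 at day -30 and 4.14, 4.55, 4.12 and 4.81 at day +15 (change 1.26, SE 0.268, adjusted p = 0.0038), and the ranges did not overlap. COX7C, another small subunit, was 4.20, 3.73, 3.93 and 3.65 at day -30 and 4.83, 5.20, 4.96 and 5.01 at day +60. Its changes were 1.12 at day +15 and 1.12 at day +60 (SE 0.301, adjusted p = 0.013 and 0.007). Of the 5 tissue forms, known from muscle, lung or testis, 0 were called higher at day +15 or day +60 and 2 were called lower, COX4I2 at both days and COX7A1 at day +15 alone. COX7A2L, a factor that joins complexes into supercomplexes, changed by 0.20 and 0.26 and was not called.

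COX4I2, the form of subunit 4 known from lung, had by far the smallest F test p of the 88 genes (adjusted p = 3.17e-05). It stood at 2.30, 2.19, 1.47 and 1.72 at day -30 and at 1.67, 1.52, 1.65 and 1.68 at day -15, before calving. At day +1 it was -0.59, 0.72, -0.48 and -0.65, so that all 4 yaks had fallen below the range before calving. It was -1.15, -0.74, -1.06 and -0.45 at day +15, -0.23, -0.84, -0.52 and -0.98 at day +30, and 0.70, -0.96, -1.88 and -0.42 at day +60. The values at these days did not overlap with day -30 in any yak. At day +120 they were -0.55, -1.03, -0.99 and 1.49, at day +180 0.42, -0.85, -1.06 and 0.25, and at day +240 -0.69, -0.79, -1.45 and -0.59. Of these, the value of 1.49 belongs to the array of yak 4 that was low in milk protein mRNA, and only that array overlapped with day -30.

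Against day -30 COX4I2 fell by 2.17 at day +1 (adjusted p = 0.0038), by 2.77 at day +15 (0.00036), by 2.56 at day +30 (0.0011) and by 2.56 at day +60 (0.00015), with an SE of 0.442 throughout (limma). The falls were 2.19 at day +120 (adjusted p = 0.0035), 2.23 at day +180 (0.00099) and 2.80 at day +240 (0.0002), or 6.95-fold at the last. Between day -15 and day +1 alone it fell by 1.88 (adjusted p = 0.022), the only call among the 88 genes at that step, where 1.79% of all genes were called. Both probes of COX4I2 gave the fall, with -2.77 and -3.18 at day +15. All of 13 alternatives kept the call at day +15, at day +30, at day +60 and at day +180, with changes from -2.98 to -1.70 at day +15 and from -2.88 to -1.44 at day +60. At day +1 it was lost without yak 1 (-1.93, adjusted p = 0.082). At day +240 it was lost under the days of the scanner files (-0.30), and at day +120 in 5 of 13 alternatives.

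The general form of the same subunit, COX4I1, was 4.63, 4.67, 4.25 and 3.74 at day -30 and 5.08, 5.30, 4.55 and 5.03 at day +15. It was higher in each of the 4 yaks, with overlap between the groups, and was not called (0.67, SE 0.315, adjusted p = 0.13). The probes of the pair are shown because they separate the forms: the probe of COX4I2 lies at chr13:61749353-61750663 of the cattle assembly UMD 3.1 on the plus strand, where its 60 bases span 1311 bases of genome and so cross an intron, and the probe of COX4I1 lies at chr18:11807173-11807232, plus strand, over the last coding exon, with the stop codon in capitals. The longest run of bases that any probe of COX4I2 shares with any probe of COX4I1 was 6.
COX4I2: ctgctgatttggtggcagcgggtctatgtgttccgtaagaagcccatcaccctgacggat
COX4I1: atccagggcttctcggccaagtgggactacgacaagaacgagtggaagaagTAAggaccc

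COX7A1, the form of subunit 7A known from heart and skeletal muscle, was 2.25, 1.91, 2.18 and 1.63 at day -30 and 1.18, 0.94, 1.00 and 0.54 at day +15. It was lower in all 4 yaks with no overlap (change -1.07, SE 0.355, adjusted p = 0.036), its second probe gave -1.18, and 7 of 13 alternatives kept the call, the change being -0.33 with array brightness in the model. At day +60 it was 1.45, 1.90, 0.45 and 1.16, lower than at day -30 in all 4 yaks but with overlap, and was not called (-0.75, adjusted p = 0.11), nor was the F test over all days (adjusted p = 0.067). Of 13 alternatives 2 called it there, and the change was 0.02 with array brightness in the model. Its general partner COX7A2 rose, from 3.01, 2.89, 2.84 and 2.69 to 3.51, 4.08, 3.64 and 4.09 (change 0.97, SE 0.262, adjusted p = 0.014). The other tissue forms were not called at day +15 or day +60: COX6A2 changed by 0.11 and -0.12, COX8B by 0.12 and -0.39, and COX6B2 by 0.53 and 0.30. COX6B2, known from testis, was called higher at day +240 (0.68). NDUFA4L2, the paralog of NDUFA4 known as a hypoxia target, changed by -0.47 at both days and was not called.

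**Figure D5:**
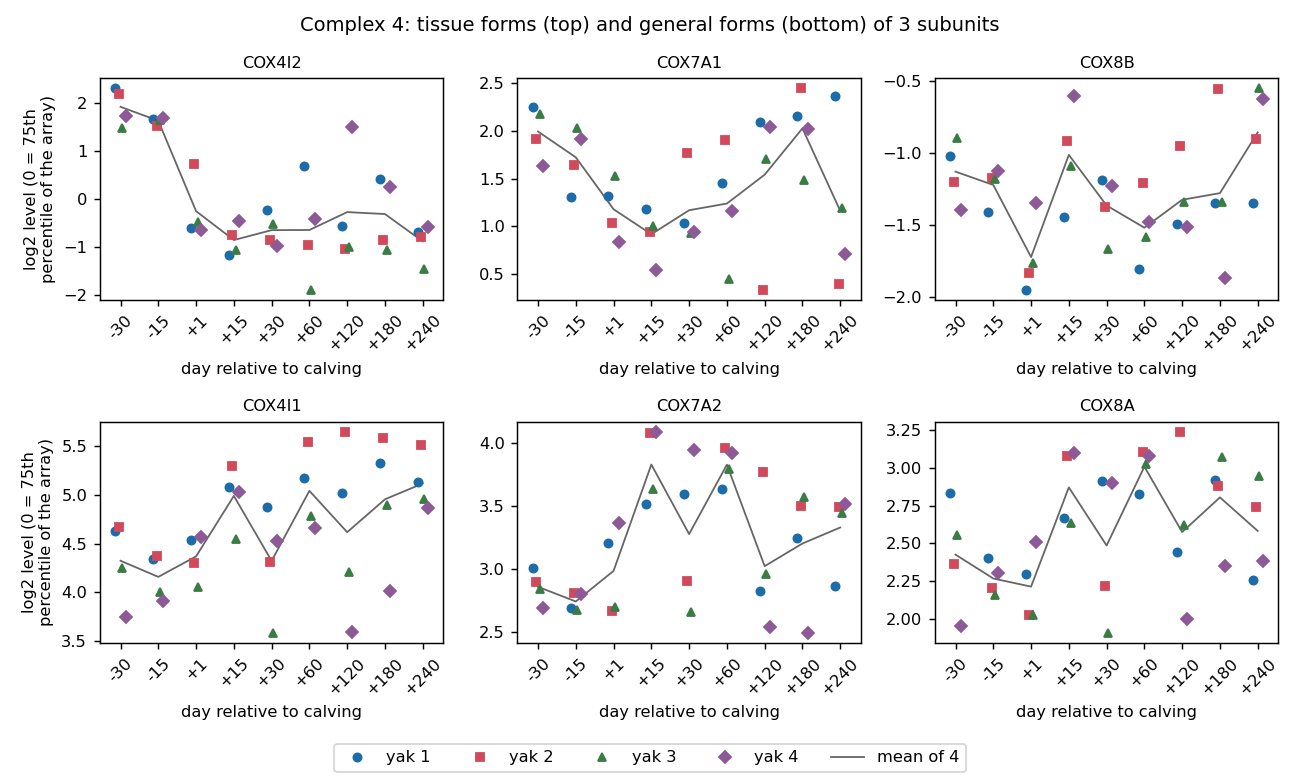
Log2 level (vertical axis, 0 = 75th percentile of the array) of 3 tissue forms of complex 4 (top) and their general forms (bottom) on each array, by day relative to calving, with a marker per yak and a line through the mean of 4. COX4I2 stood between 1.47 and 2.30 at day -30 and between -1.15 and -0.45 at day +15, while COX7A2, whose change was 0.09 with array brightness in the model, was higher at day +15 than at day -30 in every yak. Brightness did not overlap between these days.

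The ratio of a tissue form to its general form within an array is free of any single scaling factor of the array. It is not free of a difference in spread between arrays, and in all 6 pairs the first gene was the dimmer at day -30. The part of that spread in the ratios was not tested, and no ratio was fitted with array brightness. The change of the ratio was tested for 6 pairs at day +15 and day +60. These were 12 exact permutation tests of 4 arrays against 4, two-sided and chosen after the values were seen. The smallest p they can give is 0.0286. These tests leave out the pairing by yak, and an exact test within the 4 yaks, which cannot go below 0.125, could call none of them. The log2 ratio of COX4I2 to COX4I1 changed by -3.44 at day +15 with no overlap (exact p = 0.0286, adjusted p = 0.0381), where its SD over the 4 arrays was 0.316 at day -30 and 0.355 at day +15, and by -3.28 at day +60. That of COX7A1 to COX7A2 changed by -2.05 and -1.73, and that of NDUFA4L2 to NDUFA4 by -1.68 and -1.59, each with no overlap and the same exact p. In these 3 pairs the ratio was lower in 4 of 4 yaks at both days (exact paired p = 0.125). In the reported values the same held for COX8B over COX8A and COX6B2 over COX6B1. For COX6A2 over COX6A1 it was lower in 3 of 4 yaks at day +15 and in 4 at day +60. After quantile normalization the ratio of NDUFA4L2 to NDUFA4 changed by -0.88 and -0.70, with overlap (exact p = 0.0571 and 0.143), and under the days of the scanner files by -0.46 and -1.17 (exact p = 0.6 and 0.0571). That of COX7A1 to COX7A2 changed by -1.66 and -1.35 after quantile normalization, again with no overlap, and by -1.18 and -0.99 under the days of the scanner files, with overlap (exact p = 0.0857 and 0.257). For COX6A2, COX8B and COX6B2 over their partners the changes at day +15 were -0.67, -0.33 and -0.28, which the exact test did not call (adjusted p = 0.143, 0.0935 and 0.0935). After quantile normalization these changes at day +15 turned to 0.09, 0.20 and 0.71. The last, COX6B2 over COX6B1, was higher with no overlap (exact p = 0.0286, adjusted p = 0.0686). At day +60 the reported changes of these 3 ratios were -0.94, -0.97 and -0.66, called at the smallest p. But the first was 0.02 and the last 0.41 after quantile normalization, and that of COX8B 0.02 with the mean of all probes. After quantile normalization the ratio of COX4I2 to COX4I1 changed by -2.75 at day +15, again with no overlap, and the adjusted p of the exact test was 0.0686. Under the days of the scanner files it changed by -2.48 and -3.16, with an adjusted p of 0.114.

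Markers of other cells are given beside the genes that fell. The 7 skeletal muscle markers had a summed log2 level of 3.32 to 3.94 at day -30, 3.45 to 3.88 at day +15 and 3.04 to 3.63 at day +60. Of them limma called 0 at day +15, where 0 also had an unadjusted p under 0.05, and 2 lower at day +60. The 5 endothelial markers had a summed level of 2.49 to 3.29 at day -30 and 3.34 to 3.88 at day +15, with 1 called higher at day +15 and 2 at day +60. The 6 fibroblast markers had 6.05 to 6.54 and 5.85 to 7.19, and limma called 0 of them at any day, with 1 at an unadjusted p under 0.05 at day +60 and 0 at the other days.

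The remaining marker lists held few calls at day +15. The 6 adipocyte markers had a summed log2 level of 3.45 to 4.31 at day -30 and 5.07 to 5.78 at day +15, with 1 of them called higher at each of day +15 and day +60, while PLIN1, a lipid droplet protein, was -0.86 at day +15, not called. The 6 leukocyte markers had 3.85 to 4.06 and 4.49 to 5.04. Of these CD14, a monocyte and macrophage gene, was called higher at both days (3.57 and 3.79). CD3E, a T cell gene, was -0.67 and -0.94, not called, and CD79B, a B cell gene, was above background on 0 arrays of day +15. The 6 myoepithelial markers had 5.18 to 5.78 and 5.53 to 6.25, which overlap, with 1 called higher at day +15 and 3 at day +60. The part of these cells in the changes of COX4I2 and COX7A1 was not tested.

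Complex 5, ATP synthase, had the largest share of calls, 13 of 17 genes higher at day +15 and 12 at day +60, with median changes of 0.72 and 0.66. In its catalytic head 4 of 5 genes were called at both days, all except ATP5D, and in the membrane part and stalks 8 of 10, all except ATP5J2 and ATP5G1. ATP5J, coupling factor of the stalk, showed the smallest F test p of the complex (adjusted p = 0.00074). It was 2.25, 2.25, 2.45 and 2.17 at day -30, 3.41, 3.48, 3.49 and 3.50 at day +15, and 3.30, 3.18, 3.49 and 3.12 at day +60. Both later groups lay wholly above day -30 (changes 1.19 and 1.00, SE 0.206, adjusted p = 0.00071 and 0.00097), and ATP5J stayed called at day +180 (0.61) and day +240 (0.73). At day +15 all but 1 of 13 alternatives kept its call.

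ATP5E, the epsilon subunit, was 3.93, 3.90, 3.88 and 3.70 at day -30 and 4.67, 5.07, 4.68 and 5.30 at day +15, with no overlap (change 1.08, SE 0.266, adjusted p = 0.0087). ATP5L, subunit g of the membrane part, showed the largest called rise at day +240 beside ATP5S and NDUFA4: from 3.45, 3.23, 3.27 and 3.20 at day -30 it reached 3.65, 4.33, 4.60 and 4.18, a change of 0.90 (SE 0.271, adjusted p = 0.027). The proton-carrying c subunit is encoded by 3 genes, ATP5G1, ATP5G2 and ATP5G3, which give the same mature protein. ATP5G2 and ATP5G3 were called at day +15 (0.84 and 0.72) and at day +60 (0.83 and 0.66), and ATP5G1 was not (0.42 and 0.46). ATP5S and ATP5SL carry the prefix but are no structural subunits. ATP5S was called at day +15 (0.79) and day +240 (0.90), where its change was -0.25 under the days of the scanner files, and ATP5SL was not called (-0.51 at day +15). The probe of ATP5L is shown as an example of the genes that rose, since it ends on the stop codon (in capitals) and so lies wholly in coding sequence, at chr15:29529950-29530009 of UMD 3.1, plus strand.
ATP5L: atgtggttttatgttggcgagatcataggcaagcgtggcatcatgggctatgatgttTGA

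Probes of the same gene mostly moved alike. The 88 genes had 197 probes in the table, and 63 genes had more than 1. Of the 31 such genes called higher at day +15, 28 had all probes above 0, and of 28 at day +60, 26 had. In 0 genes were probes called opposite ways in any comparison with day -30. Over all comparisons with day -30, 51 of 88 genes were called at least once and 37 never, among them SDHB, SDHD, UQCRC1 and UQCRH. The share of all genes called at least once was not counted.

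The subunits encoded in mitochondrial DNA, which the naming rule leaves out, moved in the same direction as the nuclear ones. The table held 11 of them, picked by their position on the mitochondrial chromosome, and 10 were called higher at day +15 and 9 at day +60, with median changes of 1.42 and 1.09. ATP6, a proton-channel subunit of complex 5, rose by 1.62 (SE 0.391, adjusted p = 0.0076, limma) at day +15, CYTB, the cytochrome b of complex 3, by 1.42, and COX3 of complex 4 by 1.43. Their per-array median was 3.85 to 4.43 at day -30 and 5.23 to 5.83 at day +15, without overlap. It too was higher on the dimmer arrays of day +30, with 4.64 in yak 1 and 5.53 in yak 4. On the brighter arrays of yak 2 and yak 3 it was 4.14 and 4.17. The part of brightness in the rise of these genes was not tested. Of a list of 14 subunits and carriers outside the rule, most of them the same genes, 12 were higher at day +15 and 10 at day +60. In that list CYCS, the electron carrier cytochrome c, rose by 1.46, and CYC1, the cytochrome of complex 3, was not called (0.56).

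Other mitochondrial genes were counted by lists, beside 10.2% of all genes higher and 7.71% lower at day +15, and 12.6% and 16.7% at day +60. Among 31 assembly factors of the complexes 4 were higher and 2 lower at day +15, and 6 and 2 at day +60, with median changes of 0.20 and 0.22. The 12.9% of them higher at day +15 lay near the background. COA5, an assembly factor of complex 4, rose by 1.07 and 0.96. Of 19 genes of the tricarboxylic acid cycle, 3 were higher at day +15 and 5 at day +60, among them PDHB (1.07 and 0.94), a subunit of pyruvate dehydrogenase. Of 21 genes of protein import, 6 and 4 were higher, with TOMM7 (1.24 and 1.43) and TOMM5 (1.18 and 1.13), small subunits of the outer-membrane pore. Of 11 carriers of ADP, phosphate and protons, 3 and 2 were higher and 2 and 2 lower. Both lower genes were uncoupling proteins, UCP2 (-1.77 and -1.96) and UCP3 (-1.52 and -1.68). UCP2 was well above background on 4 of 4 arrays at day -30, on 3 at day +15 and on 2 at day +60, and UCP3 on 4, 4 and 3. Of 17 genes of ubiquinone synthesis and electron entry, 1 and 2 were higher and 1 and 2 lower. Of 15 genes of fatty acid oxidation, 1 and 3 were higher, with median changes of -0.01 and -0.07. Of 11 antioxidant genes 2 and 4 were higher, and of 15 genes of glycolysis 2 and 5, among them LDHB (1.49 and 1.47). The shares higher at day +15 in glycolysis (13.3%), fatty acid oxidation (6.67%) and ubiquinone synthesis (5.88%) were likewise near or below that of all genes.

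The regulators of mitochondrial biogenesis held calls in both directions, with 3 of 16 higher and 3 lower at day +15, and 2 and 3 at day +60. PPARGC1A, the coactivator known as a driver of mitochondrial genes, rose by 3.36 at day +15 (SE 0.532, adjusted p = 0.0003) and by 3.00 at day +60. ESRRA, a nuclear receptor that works with it, rose by 1.12 and 1.25. MYC, a growth regulator, fell by 1.74 at both. NRF1 and TFAM, a transcription factor of nuclear subunit genes and the main factor of mitochondrial DNA, were not called at either day (0.36 and 0.12 at day +15).

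Markers of luminal secretory cells are given beside the 88 genes. Of 10 such markers 3 were called higher at day +15 and 5 at day +60, with median changes of 2.51 and 2.55. Their summed log2 level was 7.40 to 8.22 at day -30, 10.5 to 11.1 at day +15 and 10.4 to 11.2 at day +60. At day +120 and day +180 it was lowest, 6.12 and 6.11, on the arrays of yak 4, where the median of the 88 genes was also the lowest of its day, 2.04 and 2.28. The share of the secretory cells in the change of the 88 genes was not tested.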

How the data were processed

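The members, the gene lists and the tests were chosen with earlier results of these data known. The scanner software (Feature Extraction 10.7.3.1, per the file headers) gave a processed signal per spot, in intensity units, and a mark, 0 or 1, that says whether it stood well above background. The authors deposited log2 values of 34997 of 43653 probes, and name GeneSpring 12 and JMP Genomics 7, per the labels. Each deposited column equals the log2 processed signal of 1 scanner file less that array's 75th percentile, within 0.00409. Symbols are those of the array annotation, and 68 of the 88 are also listed for the yak by RefSeq. Probe sequences and positions are those of the scanner files.

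Differences were fitted on the deposited log2 values in R 4.3.3 (limma 3.58.1, statmod 1.5.0), time fixed and animal as a random block (correlation 0.0531), as 8 comparisons with day -30, 7 steps between neighbouring days and an F test. Numbers 1 to 4 in the titles name the same yak at each day: within a day, departures from its mean correlated at 0.156 on average for arrays of one animal and at -0.0523 for different animals, and animal and slide position cannot be told apart. The code was tested on simulated data. Named were the 2 genes of each complex with the smallest F test p, the 3 largest called rises and falls of each comparison, the succinate dehydrogenase genes, the isoform genes, the matches that are no subunits and the leading genes of each list. Others were chosen after their values were seen, and 1 gene is counted but not reported by name. Alternatives covered the block, normalization, normexp background correction (offset 50), a filter on dim probes, probe averaging, brightness, the record of days, single animals and the 8 arrays of both days alone. Depth does not apply to arrays, and 4 arrays a day limit the precision. Figures were drawn with matplotlib 3.10.9 in Python 3.11.15 (numpy 2.4.6, pandas 2.3.3).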

Additional observations from a re-analysis of the deposited data

Results flagged for a closer look

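In groups of 4 arrays, 153 groups of medians and single genes were screened for a value far from the other 3 by Dixon's criterion, which chance meets in about 1 in 20 groups. The screen marked 7. COX4I2 at day +1 was 0.72 in yak 2 and -0.65 to -0.48 in the others, so that yak 2 had the smallest fall at the first sample after calving. COX7A1 at day +30 was 1.77 in yak 2 against 0.93 to 1.04. COX7A2 at day +240 was 2.87 in yak 1 against 3.44 to 3.51. SDHD at day +15 was 1.58 in yak 4 against 2.09 to 2.17, the yak that was lower there than at day -30. NDUFA5 at day -30 was 2.14 in yak 1 against 2.52 to 2.58, and ATP5J at day -15 was 2.60 in yak 1 against 2.32 to 2.35. The median of complex 5 at day -15 was 3.06 in yak 3 against 3.30 to 3.32.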

How the results depend on the processing

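Counts below are calls among the 88 genes at an adjusted p under 0.05 against day -30, and the cause of a change was not tested. Calls among all genes were not counted under these settings, so no background share stands beside them. The animal numbers pair the arrays, and with no replicate block the counts were 52 by the F test, 41 at day +15, 39 at day +60 and 10 at day +240, so leaving out the pairing moved no count by over 1.5 times. The filter on dim probes changed no count. Quantile normalization gave 27 by the F test, 6 at day +1, 15 at day +15, 3 at day +30, 8 at day +60, 4 at day +120, 8 at day +180 and 7 at day +240. Normexp background correction gave 35 by the F test, 23 at day +60, 1 at day +180, 3 at day +240 and 1 over the 7 steps, and with it the median change of all genes was 0.18 at day +15 and 0.36 at day +60, above which that of the 88 genes lay by 0.46 and 0.10. Brightness as a covariate gave 31 by the F test, 12 at day +1, 2 at day +15, 9 at day +30, 4 at day +60, 20 at day +120, 15 at day +180, 7 at day +240 and 12 over the steps. The days of the scanner files gave 9 by the F test, 1 at day +15, 40 at day +30, 3 at day +60, 0 at day +120, 1 at day +180, 0 at day +240 and 1 over the steps. The mean of all probes gave 5 at day +180 and 5 at day +240. With the 2 low-milk arrays of yak 4 left out, a setting chosen after the data were seen, the counts were 2 at day +1, 3 at day +120, 33 at day +180, 25 at day +240 and 14 over the steps. The 8 arrays of both days alone gave 4 at day +1, 0 at day +120, 1 at day +180 and 5 at day +240. Leaving out 1 animal gave 5 to 47 by the F test, 0 to 1 at day +1, 7 to 18 at day +15, 1 at day +30, 10 to 28 at day +60, 0 to 2 at day +120, 1 to 13 at day +180, 1 to 14 at day +240 and 0 to 3 over the steps.

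Signs were followed singly only for some of the genes named above, so the reversals listed here are not all. Over the whole gene set, brightness as a covariate left 36 genes with a positive change at day +15 and 18 at day +60. The reported analysis called 43 and 40 higher, so more called rises turned at both days than are listed. Among the genes followed, the sign of a called change turned with this covariate for ATP5E (-0.022), COX7B (-0.013) and NDUFA4 (-0.024) at day +60. With the same covariate the sign turned for NDUFA4 (-0.12) and ATP5L (-0.0062) at day +240. It also turned for ATP5S at day +240 (-0.25, scanner files' days) and for SDHC at day +15 (-0.029, mean of all probes). Among isoform ratios at day +60 it turned for COX6A2 over COX6A1 (0.024) and COX6B2 over COX6B1 (0.41) after quantile normalization, and for COX8B over COX8A (0.022) with the mean of all probes. At day -15 the count was 0 under every setting run. With 4 arrays a day, and day and slide not separable, neither the number of genes that changed nor the part of the slide can be fixed further.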
